A study of Mus musculus with 2 samples.

Results

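The alpha chains of the T cell receptor (TCR) were followed here through their V segments (TRAV), J segments (TRAJ), V–J pairs and the CDR3 loop (complementarity-determining region 3) in tumor-infiltrating T cells. The members were the productive alpha contigs of called cells, 1 per cell barcode and chosen by the most unique molecular identifiers (UMIs), in cells that kept 200 to 2500 detected genes and under 5% mitochondrial UMIs. A cell was CD8 when *Cd8a* and *Cd8b1* outnumbered *Cd4* and *Foxp3*, Treg when it had at least 1 *Foxp3* UMI and no CD8 UMI, and Tconv when it had *Cd3e* but neither *Foxp3* nor CD8 UMIs. Each clonotype, as called by the authors' pipeline, was counted once per lineage, which left 3265 of the 7230 clonotypes of the TCR library, in 3503 cells. These used 89 V genes of 19 V families and 43 J segments, and 38 clonotypes occurred in more than 1 lineage, so that the lineages sum to 3305.

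The T cells were sorted on TCR-β from melanomas of C57BL/6J mice at day 9 after intradermal inoculation of either B16 cells or B16–IL-33 cells, a B16 line engineered to secrete interleukin 33. The tumors carried hashtag antibodies and were loaded as 1 pool, which gave 1 gene expression, 1 hashtag and 1 TCR library. Each tumor type had 2 tags, and what the tags stand for is not given in the sources used here; they were joined, each tumor type was taken as 1 sample, and no test across mice was made. The intervals below are 95% intervals for counting error only, with exact Clopper-Pearson limits for shares, and each ratio's interval stands alone with no adjustment for the number of segments.

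The alpha chain is built in the thymus by joining 1 V to 1 J segment, with bases trimmed and added at the junction, and no D segment. A cell can rearrange the same allele again, deleting the earlier join and moving outward to V segments farther from the constant region and J segments closer to it. The junction forms the CDR3 loop, which lies over the peptide bound to an MHC molecule. In the mouse a large stretch of V segments is present in repeated copies, named with D or N, and some copies are identical in sequence.

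The segments lie on the plus strand of chromosome 14. In GRCm38 (mm10) with the GENCODE M21 annotation, the V segments run from *Trav1* at chr14:52427928-52428876 to *Trav23* at chr14:53977153-53977678. The J segments run from *Traj61* at chr14:54155005-54155076 to *Traj1* at chr14:54218814-54218842, both pseudogenes, and the constant region gene *Trac* follows at chr14:54220521-54224206. The germline J segments that carry the largest usage differences and the recurring junctions described below are given 5′ to 3′ with the bases that belong to the CDR3 in capitals.
TRAJ7, chr14:54211470-54211528: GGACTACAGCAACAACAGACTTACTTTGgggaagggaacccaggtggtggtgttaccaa
TRAJ30, chr14:54189866-54189924: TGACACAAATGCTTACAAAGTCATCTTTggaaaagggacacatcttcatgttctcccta
TRAJ18, chr14:54200777-54200842: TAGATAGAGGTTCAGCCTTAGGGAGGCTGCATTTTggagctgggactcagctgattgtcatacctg
TRAJ23, chr14:54196081-54196140: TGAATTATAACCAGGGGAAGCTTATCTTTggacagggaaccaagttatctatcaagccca

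In the rearranged CDR3s below, capitals mark the bases that neither the germline V end nor the J segment matched. The most frequent CDR3 of CD8 T cells used TRAV6 and TRAJ30, had 14 residues and was found in 12 clonotypes as 4 nucleotide versions of 3 clonotypes each. All 4 versions read cat, a histidine codon, as the fifth codon. TRAV6N-7 (chr14:53318798-53319284), identical to TRAV6D-7, ends in tgtgctctgggtga from the conserved cysteine onward.
CD8 TRAV6–TRAJ30, version with ACA: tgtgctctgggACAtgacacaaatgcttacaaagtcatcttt
CD8 TRAV6–TRAJ30, version with CCA: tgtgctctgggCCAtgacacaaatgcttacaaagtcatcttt
CD8 TRAV6–TRAJ30, version with GCA: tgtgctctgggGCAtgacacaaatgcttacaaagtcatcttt
CD8 TRAV6–TRAJ30, version with CA: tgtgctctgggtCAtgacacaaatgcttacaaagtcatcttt

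The next CDR3 of CD8 T cells used TRAJ7, had 13 residues and was found in 11 clonotypes with V segments of 3 families, TRAV5, TRAV7 and TRAV10. At the fourth codon it had aag or aaa, both lysine, made with 1 or 2 bases that matched neither segment.
CD8 TRAJ7 with TRAV10 or TRAV7, 5 clonotypes: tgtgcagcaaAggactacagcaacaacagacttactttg
CD8 TRAJ7 with TRAV5, 3 clonotypes: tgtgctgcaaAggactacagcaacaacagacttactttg
CD8 TRAJ7 with TRAV10 or TRAV7, 2 clonotypes: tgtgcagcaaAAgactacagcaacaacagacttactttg
CD8 TRAJ7 with TRAV5, 1 clonotype: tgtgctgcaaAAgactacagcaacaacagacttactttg

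The CDR3 shared by the largest number of Tconv clonotypes was that of the invariant natural killer T (NKT) cell chain, TRAV11 joined to TRAJ18, with 46 clonotypes in 5 nucleotide versions. TRAV11 (chr14:53519303-53519859) ends in tgtgtggtgggcg, and the versions differ mainly in the last base of a glycine codon at the join. The 4 most frequent follow.
TRAV11–TRAJ18, 16 clonotypes: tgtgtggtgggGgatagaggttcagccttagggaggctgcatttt
TRAV11–TRAJ18, 15 clonotypes: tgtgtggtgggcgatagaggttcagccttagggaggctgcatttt
TRAV11–TRAJ18, 10 clonotypes: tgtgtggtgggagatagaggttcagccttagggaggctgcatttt
TRAV11–TRAJ18, 4 clonotypes: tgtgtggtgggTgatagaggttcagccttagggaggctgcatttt

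The most frequent CDR3 of Treg cells used TRAJ23 with TRAV14 or TRAV7, in 12 clonotypes and 6 versions. The 3 most frequent carried 3 or 4 bases between V and J that matched neither segment.
Treg TRAJ23, 4 clonotypes: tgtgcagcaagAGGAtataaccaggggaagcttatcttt
Treg TRAJ23, 3 clonotypes: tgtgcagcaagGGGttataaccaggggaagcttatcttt
Treg TRAJ23, 2 clonotypes: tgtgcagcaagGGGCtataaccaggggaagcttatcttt

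The 3 lineages carried their markers. Most markers that the rule did not use followed the lineages. Levels are given as CPM (UMIs of the gene per 1000000 UMIs over all cells of the group). *Il2ra*, a chain of the IL-2 receptor, reached 452 CPM in Treg cells against 54.8 in CD8 and 115 in Tconv cells. *Ctla4*, an inhibitory receptor, was at 1188 CPM in Treg cells against 408 in Tconv cells, and *Ikzf2* at 859 against 302. *Nkg7*, a cytotoxic granule gene, was at 1860 CPM in CD8 cells against 454 in Treg and 431 in Tconv cells. *Cd40lg*, a helper T cell ligand, was at 132 CPM in Tconv cells against 36.2 and 16.2 in Treg and CD8 cells. *Tcf7*, also listed for Tconv cells, was at 263 CPM there against 49.6 in Treg and 155 in CD8 cells. *Il7r*, the IL-7 receptor, set Tconv and Treg cells apart little, at 337 against 290 CPM. *Cd4*, which the rule did not ask of Tconv cells, was at 252 against 248 CPM. *Ikzf2* UMIs were found in 33.9% and *Ctla4* UMIs in 36.9% of Tconv cells. Whether Tconv cells include Treg cells with undetected *Foxp3* was not tested. Markers of other cells summed to 445 CPM in CD8, 657 in Treg and 674 in Tconv cells for myeloid genes. *Cst3* was the highest of these, at 186, 334 and 267 CPM, with *Lyz2* at 107, 98.9 and 147. NK genes summed to 334, 17.5 and 76.1 CPM in the same order. In CD8 cells that sum was nearly all *Klrd1*, at 334 CPM, with *Ncr1* at 0.198. NKT genes summed to 8.51, 1.82 and 22.7 CPM. Gamma delta T, B cell and melanoma genes summed to at most 20.8 CPM in any lineage. The part of such cells in segment usage was not tested. Of the receptor's partners, the constant genes *Trac*, *Trbc1* and *Trbc2* and *Cd3e* were present in every lineage, with *Trac* at 392, 629 and 466 CPM in CD8, Treg and Tconv cells, whereas the recombinase genes *Rag1* and *Rag2* had 0 UMIs in all 3.

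An alpha chain was recovered in 626 of 1259 CD8 cells, 49.7% (46.9 to 52.5), in 1403 of 2610 Treg cells, 53.8% (51.8 to 55.7), and in 1474 of 3454 Tconv cells, 42.7% (41 to 44.3). These gave 541, 1357 and 1407 clonotypes. Cells with an alpha chain were deeper, with a median of 4296 UMIs in CD8, 3404 in Treg and 2807 in Tconv cells, than cells without one, at 2860, 2075 and 2037.5 UMIs. The kept alpha contigs rested on 1 to 19 UMIs each, with a median of 3, and 367 of the 3503 cells had at least 2 productive alpha chains. In CD8 cells 46 clonotypes had at least 2 cells and the largest had 13, whereas the largest had 4 cells in Treg and 6 in Tconv cells.

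Both TRAJ7 and TRAJ30 took a larger share of CD8 clonotypes than of the other lineages. TRAJ7, near the 3′ end of the J cluster, was used by 72 of 541 CD8 clonotypes, 13.3% (10.6 to 16.5). It was used by 28 of 1357 Treg clonotypes, 2.06% (1.38 to 2.97), and by 32 of 1407 Tconv clonotypes, 2.27% (1.56 to 3.2). The CD8 share was 5.85 times the Tconv share (3.81 to 9.17) and 6.45 times the Treg share (4.12 to 10.4). TRAJ30, from the middle of the cluster, was used by 54 CD8 clonotypes, 9.98% (7.59 to 12.8), against 2.21% in Treg and 3.06% in Tconv clonotypes. Its CD8 share was 3.27 times the Tconv share (2.15 to 4.99) and 4.51 times the Treg share (2.84 to 7.31). Both CD8 intervals lie wholly above those of the other lineages.

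**Figure D1:**
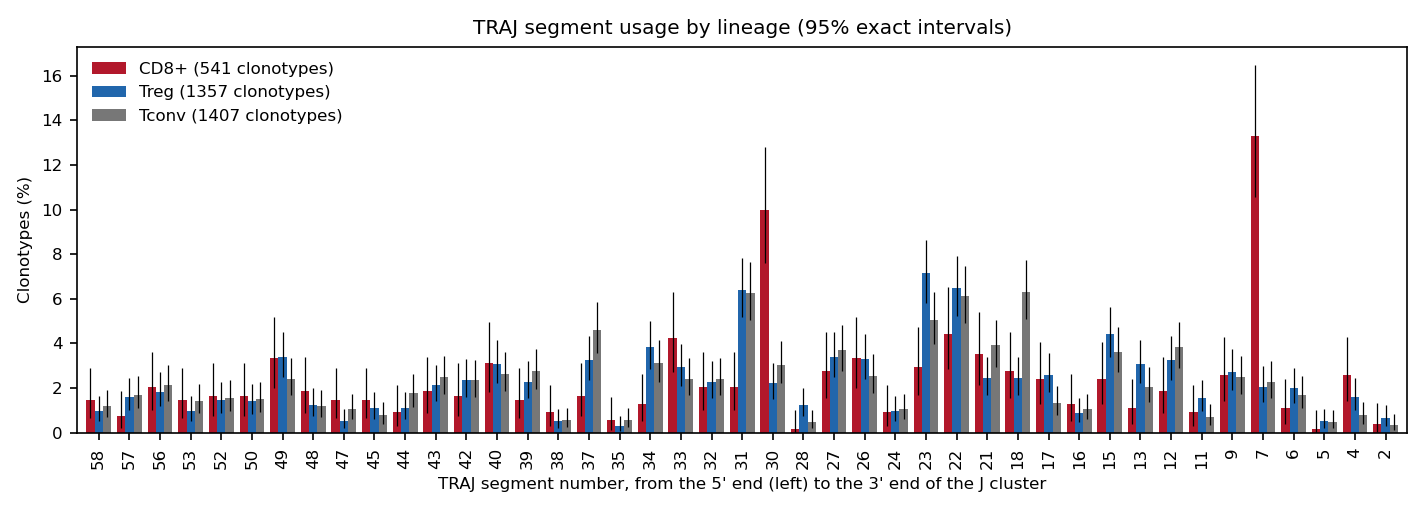
Share of clonotypes (percent) that used each TRAJ segment, ordered along the locus from the segment farthest from the constant region, in CD8, Treg and Tconv cells; bars and whiskers are shares and exact 95% intervals of counting error. TRAJ7 at 13.3% and TRAJ30 at 9.98% of CD8 clonotypes stand above the other segments, and TRAJ18 stands out in Tconv clonotypes at 6.33%.

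Other J segments took a smaller share of CD8 clonotypes. TRAJ31 was used by 2.03% of CD8 clonotypes against 6.41% in Treg and 6.25% in Tconv clonotypes, 3.15 times (1.68 to 6.55) and 3.08 times (1.64 to 6.39) the CD8 share. TRAJ34 took 1.29%, 3.83% and 3.13% of CD8, Treg and Tconv clonotypes. Its Treg share was 2.96 times (1.34 to 7.73) and its Tconv share 2.42 times (1.08 to 6.36) the CD8 share. TRAJ37 took 1.66% in CD8 against 4.62% in Tconv clonotypes, 2.78 times as much (1.38 to 6.34), and TRAJ23 took 2.96% in CD8 against 7.15% in Treg clonotypes, 2.42 times as much (1.42 to 4.40). TRAJ12 was 2.08 times as frequent in Tconv as in CD8 clonotypes (1.05 to 4.57), and TRAJ13 2.79 times as frequent in Treg as in CD8 clonotypes (1.18 to 8.03). Shares differed by at least 1.5 times between CD8 and Tconv clonotypes for 15 of the 27 J segments with 50 or more clonotypes, 55.6%, with 4 higher and 11 lower in CD8. Between CD8 and Treg clonotypes 12 of 27 did, 44.4%. Between Treg and Tconv clonotypes 4 of 27 did, 14.8%. Of the 15 CD8 to Tconv ratios, 8 have an interval that includes 1, those of TRAJ33, TRAJ17, TRAJ57, TRAJ39, TRAJ23, TRAJ15, TRAJ13 and TRAJ6, with TRAJ33 at 1.76 (0.990 to 3.08). Of the 12 CD8 to Treg ratios, 6 do, those of TRAJ57, TRAJ39, TRAJ37, TRAJ15, TRAJ12 and TRAJ6, with TRAJ39 at 0.647 (0.257 to 1.44).

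Among Treg and Tconv clonotypes, TRAJ18 differed most among these segments, at 2.43% against 6.33%, a Tconv share 2.60 times that of Treg (1.73 to 4.01). Without the TRAV11–TRAJ18 join, TRAJ18 took 2.70% of Tconv clonotypes. TRAJ17 was 1.91 times as frequent in Treg as in Tconv clonotypes (1.06 to 3.53), TRAJ21 was 1.61 times as frequent in Tconv as in Treg clonotypes (1.03 to 2.56), and the ratio of 1.5 for TRAJ13 has an interval that includes 1 (0.914 to 2.50). Under the alternatives the Treg to Tconv ratio ranged from 1.08 to 2.42 for TRAJ17, with the lowest value under stricter lineages. It ranged from 0.331 to 0.753 for TRAJ18, with the highest value when clones were defined by V, J and CDR3 nucleotides, and from 0.581 to 0.754 for TRAJ21, so that each ratio falls short of 1.5 times under an alternative. The most used J segments over all lineages were TRAJ22 with 198 clonotypes, TRAJ31 with 186, TRAJ23 with 184, TRAJ18 with 137 and TRAJ7 with 132.

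TRAV7 was the most used V family with 583 clonotypes, followed by TRAV6 with 497, TRAV14 with 392, TRAV4 with 291 and TRAV13 with 283. Copies within a family were counted together, since 16 of the 89 V genes are identical to another copy and hold 865 clonotypes. CD8 clonotypes used TRAV3, TRAV8 and TRAV12 more often. TRAV3 took 8.50% of CD8 clonotypes (6.29 to 11.2) against 4.72% in Treg and 4.26% in Tconv clonotypes, ratios of 1.80 (1.21 to 2.67) and 1.99 (1.33 to 2.98). TRAV8 took 7.21% against 4.42% and 3.2%, ratios of 1.63 (1.06 to 2.48) and 2.25 (1.43 to 3.54). TRAV12 took 10.5% against 6.63% and 6.89%, ratios of 1.59 (1.12 to 2.24) and 1.53 (1.08 to 2.14). With the TRAJ7 and TRAJ30 clonotypes left out, a step chosen after their values were seen, the ratios to Tconv clonotypes were 2.12 (1.34 to 3.31) for TRAV3, 2.08 (1.19 to 3.57) for TRAV8 and 1.5 (1.01 to 2.18) for TRAV12. The CD8 to Tconv ratio was then 0.580 (0.413 to 0.799) for TRAV7 and 0.777 (0.503 to 1.16) for TRAV4, the latter with an interval that includes 1.

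TRAV7 and TRAV4 took a smaller share of CD8 clonotypes. TRAV7 was used by 12% of CD8 clonotypes (9.40 to 15.1), 19.1% of Treg clonotypes (17 to 21.3) and 18.4% of Tconv clonotypes (16.4 to 20.5), which are 1.59 times (1.21 to 2.12) and 1.53 times (1.16 to 2.04) the CD8 share. TRAV4 was used by 5.73%, 9.65% and 9.17%, so that the Treg share was 1.68 times (1.13 to 2.58) and the Tconv share 1.60 times (1.07 to 2.45) the CD8 share. TRAV6, TRAV14 and TRAV13 differed by less than 1.5 times between every pair of lineages. Between Treg and Tconv clonotypes, only TRAV10 and TRAV11 passed that ratio, 2 of 13 families with 50 or more clonotypes or 15.4%. TRAV10 took 5.08% of Treg against 3.2% of Tconv clonotypes, 1.59 times as much (1.08 to 2.37). It took 2.22% of CD8 clonotypes, and the Treg share was 2.29 times that (1.23 to 4.65). TRAV11 took 0.442% of Treg against 3.70% of Tconv clonotypes, 8.36 times as much in Tconv (3.59 to 23.8). With 1 CD8 clonotype its CD8 to Treg ratio was 0.418 (0.00909 to 3.45). Between CD8 and Tconv clonotypes 6 of 13 families passed the ratio, 46.2%, and between CD8 and Treg clonotypes 7 of 13, 53.8%.

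**Figure D2:**
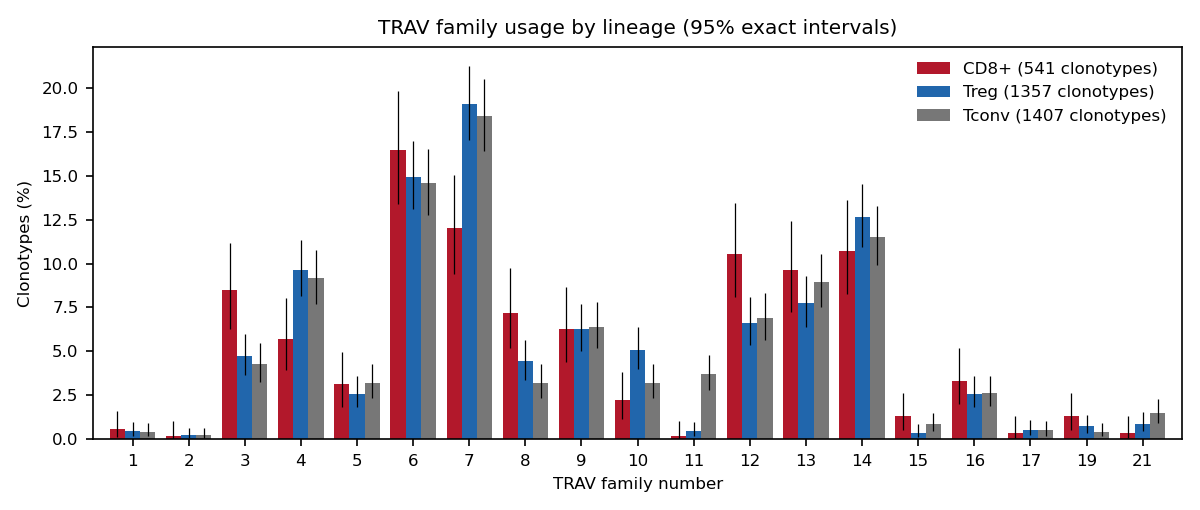
Share of clonotypes (percent) that used each TRAV family, copies joined, in CD8, Treg and Tconv cells, with exact 95% intervals of counting error. TRAV7 stands at 12% of CD8 against 19.1% of Treg and 18.4% of Tconv clonotypes, and TRAV11 reaches 3.70% in Tconv clonotypes.

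The gene expression library carries the same V genes from the same cDNA and was read as a second measure, although it is no independent sample. At least 1 *Trav* UMI was present in 3726 of 7323 cells, 50.9%. Cells with a tie between leading *Trav* families were left out here and among the cells with no contig below. The leading *Trav* family was that of the contig in 2013 of the 2366 remaining cells with both, 85.1% (83.6 to 86.5). Where at least 2 *Trav* UMIs were present, it was so in 1322 of 1463 cells, 90.4%. Ties need at least 2 UMIs, and how counting them would change these shares was not tested. Detection differed by family, since TRAV8 UMIs were seen in 98.7% of cells with a TRAV8 contig and 2.33% of the other cells, TRAV7 UMIs in 60.8% and 4.28%, and TRAV11 UMIs in 11.9% and 0.0581%. Among cells with no contig, TRAV8 led in 7.64% of CD8 and 5.81% of Tconv cells, a ratio of 1.32 whose interval includes 1 (0.609 to 2.67). TRAV3 in these cells had a CD8 to Tconv ratio of 0.959 (0.421 to 2.0), TRAV12 of 1.21 (0.584 to 2.36) and TRAV7 of 0.815 (0.405 to 1.52). With 157 CD8 and 482 Tconv cells of this kind, these intervals hold both 1 and ratios of 1.5. TRAV4 in cells with no contig had a Treg to Tconv ratio of 0.571 (0.320 to 0.985). By contigs that ratio was 1.05 (0.819 to 1.35), and the cause of the difference was not tested. Other ratios between lineages computed in these cells, for TRAV3, TRAV4, TRAV7, TRAV8, TRAV10 and TRAV12, have intervals that include 1.

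V and J segments were paired by position. Proximal V segments, of which TRAV17, TRAV19 and TRAV21 were seen, joined the 5′ J segments (TRAJ61 to TRAJ42) in 60 of 74 clonotypes, 81.1% (70.3 to 89.3). All other V segments did so in 634 of 3231 clonotypes, 19.6% (18.3 to 21), a difference of 61.5 percentage points (50.6 to 69.7). Proximal joins to 5′ J segments made up 6 of 11 in CD8, 24 of 29 in Treg and 30 of 34 in Tconv clonotypes. Along the V locus the share of 5′ J segments was 4.17% of 96 clonotypes at the distal single V segments and 7.95% of 1623 in the D and N copies. It was 18.2% of 691 and 48.0% of 717 in the 5′ and 3′ parts of the original stretch. Across 3201 clonotypes with a placed V segment, the rank order of V and J along the locus had a Spearman rho of 0.46, given as a description, and 104 clonotypes whose V gene is identical in separate stretches could not be placed. Within CD8, Treg and Tconv clonotypes rho was 0.57, 0.47 and 0.42.

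**Figure D3:**
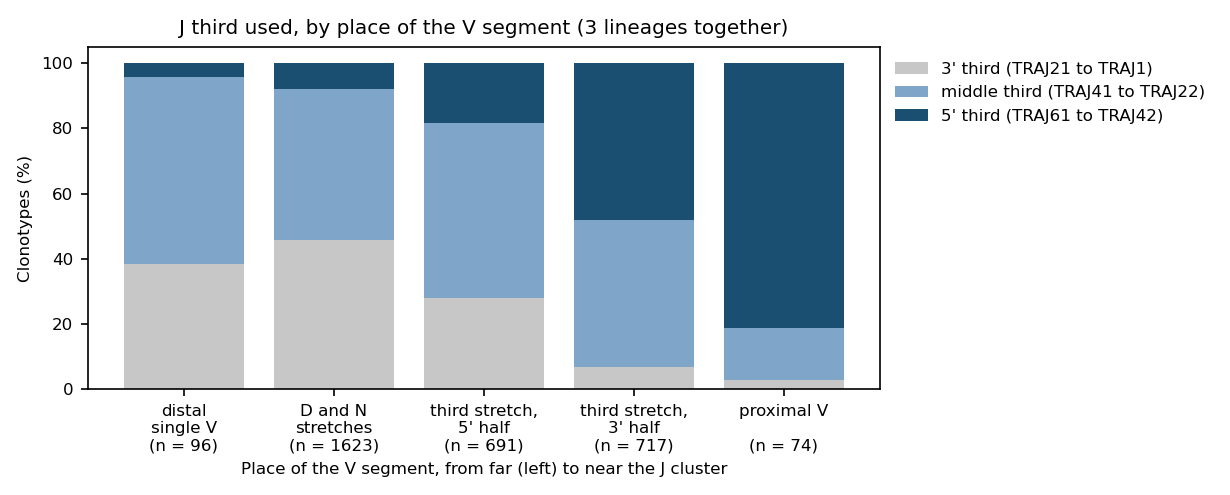
Share of clonotypes (percent) whose J segment lies in each part of the J cluster, for V segments grouped along the locus from distal to proximal. The share of 5′ J segments is 4.17% at the distal single V segments and 81.1% at the proximal ones.

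CD8 clonotypes took 36.4% of their J segments from the 3′ section (TRAJ21 to TRAJ1), 5.43 percentage points above Tconv (0.661 to 10.3) and 6.20 above Treg clonotypes (1.42 to 11.1). Without TRAJ7 and TRAJ30 the CD8 share was 30.1%, and the difference from Tconv clonotypes was -0.21 points (-5.28 to 5.06). The 5′ section took 21.6% of CD8, 20.1% of Treg and 21.6% of Tconv clonotypes. With V segments of the D and N copies alone, 56.4% of CD8 clonotypes joined 3′ J segments against 42.1% of Tconv clonotypes, 14.4 points apart (7.21 to 21.4). There the difference without TRAJ7 and TRAJ30 was 12.3 points (3.77 to 20.6). In the 5′ part of the original stretch, which holds TRAV11, the order was the reverse, with 35.8% in Tconv, 21.9% in Treg and 16.9% in CD8 clonotypes. Without the TRAV11–TRAJ18 join the Tconv share there was 24%, and its difference from CD8 clonotypes had an interval that includes 0.

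The invariant NKT join occurred in 51 Tconv clonotypes, 3.62% (2.71 to 4.74), and in 3 Treg clonotypes, 0.221% (0.0456 to 0.645). The Tconv share was 0.694% when clones were defined by V, J and CDR3 nucleotides, which merges chains with different partners, 1.67% with at least 3 contig UMIs and 2.08% under stricter lineages. The join was found in 0 of 541 CD8 clonotypes, which allows a share of up to 0.555% at 3 counts, with an exact upper limit of 0.680%. Of the 51 Tconv chains 50 had 15 residues. The cells with the join had *Zbtb16*, the transcription factor PLZF of NKT cells, at 75.2 CPM against 2.66 in other Tconv cells, and the NKT marker *Klrb1c* at 80.9 against 5.10 CPM, ratios of 28.2 (11.9 to 67.7) and 15.9 (7.55 to 32.2). The join of mucosal-associated invariant T cells, TRAV1–TRAJ33, was found in 0 clonotypes of every lineage, which at 3 counts allows up to 0.555% of CD8, 0.221% of Treg and 0.213% of Tconv clonotypes, with exact upper limits of 0.680%, 0.271% and 0.262%.

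After this join, the most frequent pairs were TRAV7–TRAJ23 with 46 clonotypes, TRAV6–TRAJ30 with 43, TRAV4–TRAJ22 with 37 and TRAV14–TRAJ22 with 35. TRAV6–TRAJ30 was held by 28 CD8, 7 Treg and 8 Tconv clonotypes, 5.18%, 0.516% and 0.569% of each lineage. TRAV7–TRAJ23 was held by 5, 23 and 18 clonotypes.

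The CDR3 was longer in CD8 clonotypes by a fraction of a residue. Its mean was 13.7 ± 1.28 residues (SD over 541 clonotypes) in CD8, 13.5 ± 1.28 in Treg and 13.5 ± 1.31 in Tconv clonotypes. CDR3s of 13 residues or fewer made up 39.0% of CD8 clonotypes (34.9 to 43.3), 51.4% of Treg clonotypes (48.7 to 54.1) and 48.0% of Tconv clonotypes (45.3 to 50.6). The CD8 share minus the Treg share was -12.4 points (-17.4 to -7.4), and minus the Tconv share -8.97 points (-13.9 to -3.97). A length of 14 residues was held by 41.4% of CD8 against 30.1% of Treg and 30.3% of Tconv clonotypes, 11.3 points (6.45 to 16.3) and 11.1 points (6.19 to 15.96) apart. Among CD8 clonotypes 14 residues were found in 75.9% of the 54 with TRAJ30 and 54.2% of the 72 with TRAJ7. Without these segments, 14 residues made up 34.7% of CD8 clonotypes, 3.99 points above Tconv with an interval that includes 0 (-1.25 to 9.39). The CD8 share of short CDR3s then differed by -8.96 points from Treg (-14.5 to -3.33) and by -4.77 points from Tconv clonotypes (-10.3 to 0.839).

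**Figure D4:**
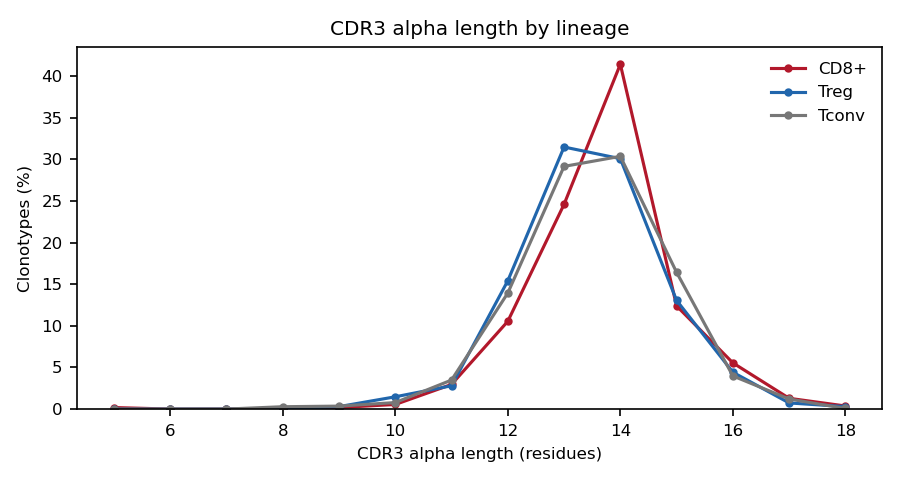
Share of clonotypes (percent) by CDR3 alpha length in residues, with the conserved ends counted, in CD8, Treg and Tconv cells. At 14 residues the CD8 share of 41.4% lies above 30.1% in Treg and 30.3% in Tconv clonotypes.

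Few bases at the junctions matched neither segment. Their mean number was 2.78 in CD8, 2.64 in Treg and 2.70 in Tconv clonotypes, and 13.9%, 15.3% and 17% of clonotypes had none. Added bases that happen to match a segment are not counted in these values. A mismatch within V leaves the bases from there to the J match counted as unmatched. In CD8 clonotypes TRAJ7 lost a mean of 0.347 ± 0.772 bases (SD over clonotypes) and TRAJ30 of 0.630 ± 1.19 bases at its 5′ end, against 3.07 ± 2.75 over all other J segments. In Treg clonotypes the losses were 1.89 for TRAJ7 and 2.80 for TRAJ30, and in Tconv clonotypes 2.06 and 3.51. The near-complete J ends of CD8 clonotypes can be read in the sequences given above, where TRAJ30 begins at its first base and TRAJ7 at its first or second base.

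The 72 CD8 clonotypes with TRAJ7 were not 1 expanded clone. They held 54 nucleotide versions and 46 distinct CDR3s from 13 V families, and their 101 cells included no clonotype above 8 cells. TRAV7 led with 18 clonotypes, TRAV8 followed with 13 and TRAV12 with 12, while TRAV6 was found in 1 clonotype, 1.39% against 14.5% of CD8 clonotypes with other J segments. On the beta chain, TRBV5 was carried by 16 of 66 clonotypes with a beta chain, 24.2% (14.5 to 36.4), against 23 of 401, 5.74%, with other J segments. The 54 CD8 clonotypes with TRAJ30 in 65 cells used 11 V families. TRAV6 was in 28 of them, 51.9% against 14.5% with other J segments, and 24 were called TRAV6N-7. Their beta chains used TRBV19 in 15 of 49 clonotypes, 30.6% (18.3 to 45.4), against 32 of 401, 7.98%. These beta segments were singled out after their values were seen.

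CDR3s shared by separate clonotypes were found in every lineage. At least 2 clonotypes held the same CDR3 in 115 of 541 CD8 clonotypes (21.3%), 251 of 1357 Treg clonotypes (18.5%) and 280 of 1407 Tconv clonotypes (19.9%). At least 3 did in 10.2%, 5.67% and 8.96%; these shares grow with the number of clonotypes, which differs between lineages. The TRAV6–TRAJ30 CDR3 with the histidine codon, in 12 CD8 clonotypes, was held by 2 Treg and 0 Tconv clonotypes. A beta chain was found for 11 of the 12, each different. The TRAJ7 CDR3 with the lysine codon, in 11 CD8 clonotypes, was held by 0 Treg and 1 Tconv clonotype. A beta chain was found for 10 of the 11, each different. The TRAJ23 CDR3 of 12 Treg clonotypes was held by 5 Tconv and 0 CD8 clonotypes, and 9 of the 12 had a beta chain, each different. The invariant NKT CDR3 of 46 Tconv clonotypes had a beta chain in 43, each different. Without TRAJ7 and TRAJ30, 401 of 415 CD8, 1066 of 1299 Treg and 1161 of 1332 Tconv clonotypes had a beta chain. A clonotype without one may belong to the same clone as another with the same CDR3. The shares above may then count a clone more than once, unequally between lineages, and this was not tested.

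CD8 cells with TRAJ7 or TRAJ30 also differed in gene expression from the other CD8 cells with an alpha chain, a readout that choosing segments by usage did not involve. The values are sums over 101, 65 and 460 cells with a median of 4671, 5499 and 4034 UMIs, and cells of 1 clonotype are not independent. *Tcf7*, the transcription factor TCF-1 of naive and memory cells, was at 51.4, 87.0 and 172 CPM with TRAJ7, TRAJ30 and other J segments, ratios of 0.299 (0.193 to 0.446) and 0.507 (0.339 to 0.733) to the latter. *Il7r*, the IL-7 receptor, was at 63.2, 53.3 and 142. The intervals of all 4 ratios to other J segments lie below 1 for these genes. *Ifng*, encoding interferon-γ, was at 589 CPM with TRAJ7, 180 with TRAJ30 and 216 with other J segments, a TRAJ7 ratio of 2.73 (2.35 to 3.16).

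The exhaustion-associated receptor gene *Pdcd1*, encoding PD-1, was at 176, 283 and 122 CPM with TRAJ7, TRAJ30 and other J segments, a TRAJ30 ratio of 2.32 (1.82 to 2.93). *Havcr2*, encoding TIM-3, was at 94.8, 89.8 and 46.3 CPM, and *Lag3* at 282, 216 and 150, with all intervals of the ratios to other J segments above 1. *Tigit* was at 243, 224 and 159 CPM and *Gzmk*, the protease granzyme K, at 308, 255 and 174. *Ccr7*, a homing receptor of naive and memory cells, was at 29.6, 58.9 and 78.5 CPM, and its TRAJ30 ratio of 0.751 has an interval that includes 1 (0.452 to 1.19). *Gzmb*, the protease granzyme B, was at 1685 CPM with TRAJ7, 1046 with TRAJ30 and 989 with other J segments, ratios of 1.70 (1.57 to 1.85) and 1.06 (0.945 to 1.18). With 1 cell per clonotype, *Ifng* was at 503, 155 and 187 CPM and *Pdcd1* at 194, 279 and 107, so the order of the groups was the same for these genes. *Gzmb* was then at 1685, 827 and 883, with TRAJ30 cells below the others.

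**Figure D5:**
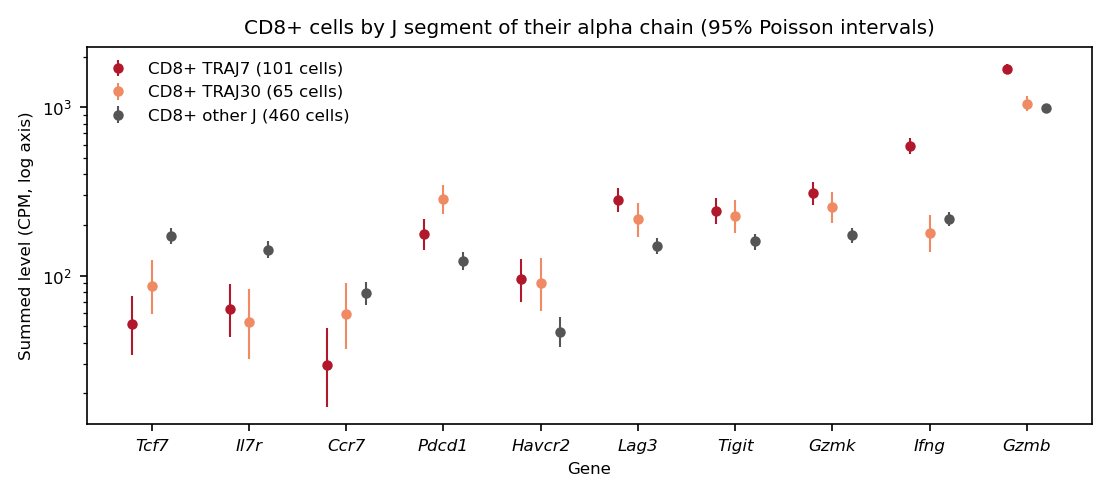
Expression (CPM, log axis) of genes in CD8 cells with TRAJ7, TRAJ30 or another J segment, as sums over 101, 65 and 460 cells with intervals of counting error only. *Tcf7* stands at 172 CPM with other J segments and 51.4 with TRAJ7, and *Ifng* stands at 589 CPM with TRAJ7.

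Tumor of origin could be read for few cells, because the hashtag library was sparse. Cells whose tag UMIs all pointed to the same tumor numbered 651 for B16 and 112 for B16–IL-33, and 691 of these assignments rest on 1 tag UMI. They held 369 and 53 alpha clonotypes, of which 161 and 33 were Treg, 149 and 10 Tconv, and 59 and 10 CD8 clonotypes, so the lineages were mixed unequally. TRAV7 took 17.1% of B16 clonotypes (13.4 to 21.3) and 22.6% of B16–IL-33 clonotypes (12.3 to 36.2), 5.57 points apart with an interval of -5.62 to 19.6. Within Treg clonotypes it took 20.5% and 27.3%, 6.78 points apart (-8.88 to 26.0), and within Tconv clonotypes it was in 26 of 149 and 2 of 10, 2.55 points apart (-16.3 to 38.6). TRAJ7 or TRAJ30 was used by 10 of 59 CD8 clonotypes from B16 and 3 of 10 from B16–IL-33 tumors, 13.1 points apart (-13.2 to 49.3). The intervals of all differences compared between the tumors include 0, and at this depth a difference as wide as these intervals was not detectable.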

How the data were processed

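T cells of 1 pool were profiled by 10x Genomics 5′ gene expression, hashtag and V(D)J libraries. The authors deposited raw counts of UMIs per gene, per tag and per assembled contig, without normalization. The matrix header names Cell Ranger 3.1.0 and the submitters' processing notes 6.1.1, with mm10. Genes seen in at least 4 cells and cells within the limits of the study's methods were kept, 9083 of 14035 barcodes; no doublet caller was run, and cells with at least 2 alpha chains were kept. Coordinates and germline ends came from GENCODE M21. Segments were named if they had at least 50 clonotypes and a ratio of at least 1.5 between any 2 lineages, if they were among the 5 most used V families, J segments or pairs, or for invariant joins. Members, lists and tests were chosen with earlier results of these data known. Python 3.11.15, pandas 2.3.3, NumPy 2.4.6, SciPy 1.17.1 and matplotlib 3.10.9 were used. Ratios had exact conditional binomial intervals and differences intervals built from both shares' limits; the interval step was tested on simulated data. CPM were taken from UMIs summed over the cells of a group. No p-value was computed, because the lineages and tumors come from 1 pool. Alternatives changed the clone definition, lineage rule, contig UMIs, alpha chains per cell, cell filters, J split and CDR3 limit. Only part of the genes summed for CD8 cells is reported here.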

Additional observations from a re-analysis of the deposited data

Results flagged for a closer look

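Among 7678 alpha contigs with a V and a J segment, 845, or 11%, were marked non-productive although a CDR3 is given, and these entered none of the comparisons above. By family the share was 17 of 70 for TRAV19, 24.3%, 139 of 599 for TRAV9, 23.2%, and 18.1% for TRAV12. It was 5.27% for TRAV7 and 5.44% for TRAV14, so the part left out of the usage counts differed between families. Whether these contigs are true non-productive joins was not tested. Of 1760 cells that passed the filters but fell in no lineage, 406 held an alpha chain.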

How the results depend on the processing

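Of 255 alternative values of the main results, 221 stayed within the set limits and 34 moved. Only the share ratios and the proximal V differences could be marked as reversed, and 0 of these were. Counts, shares, percentages and the tumor difference could not receive that mark. Ratios of CD8 to Tconv ranged from 4.87 to 8.64 for TRAJ7, from 2.21 to 5.11 for TRAJ30 and from 1.84 to 2.56 for TRAV8. Of 414 alternative values of 46 named ratios, 3 reversed, each with contigs of at least 3 UMIs: TRAV11 CD8 to Treg was 1.07 (0.418 as reported), TRAJ33 CD8 to Tconv 0.883 (1.76) and TRAJ39 CD8 to Treg 1.21 (0.647). That limit also left 263, 848 and 658 CD8, Treg and Tconv clonotypes, recovery of 23.5%, 33.5% and 19.5%, 0 V families called between Treg and Tconv, 8 and 7 J segments called between CD8 and Tconv or Treg, 51.8% short CDR3s in Tconv, and the NKT join at 0% of Treg and 1.67% of Tconv clonotypes. With clones defined by V, J and CDR3 nucleotides, 0 V families were called between Treg and Tconv and the NKT join was 0.694% of Tconv clones, since its clonotypes share nucleotides. Stricter lineages gave recovery of 60.3% in Treg and 49.97% in Tconv cells, 874 and 722 clonotypes, and the NKT join at 0% and 2.08%. With exactly 1 alpha chain, recovery was 44.9%, 46.8% and 39.1%, and the *Trav* family matched in 87.4%. Without the upper gene limit, recovery was 55.3% in CD8 and 55.8% in Treg cells, TRAJ30 CD8 to Tconv was 5.11, and 1 V family was called between Treg and Tconv. A mitochondrial limit of 10% gave CD8 recovery of 46.9% and 2 J segments called between Treg and Tconv. Splitting J at TRAJ31 gave a proximal difference of 45.3 points in Tconv, and a limit of 12 residues gave short shares of 14.4%, 19.97% and 18.8%. Unless an alternative's own construction shows the cause, as fewer clonotypes or cells do, the cause was not tested. No paired analysis was possible because the samples are different libraries of 1 pool, and no group has more than 1 sample. Depth limits segments with few clonotypes and the tumor comparison.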

Other observations

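After the values above were seen, TRAJ7 and TRAJ30 were also counted among alpha chains marked non-productive. Contigs of the same clonotype and lineage with the same V gene and J segment were counted as 1 chain, separately with and without a CDR3. Without a CDR3, TRAJ7 was in 3 of 75 such chains of CD8 cells, 4% (0.833 to 11.2), 0 of 157 of Treg cells and 2 of 167 of Tconv cells. TRAJ30 was in 2 of 75, 4 of 157 and 1 of 167. With a CDR3 given, TRAJ7 was in 8 of 109, 3 of 179 and 1 of 233 chains, 7.34%, 1.68% and 0.429%. TRAJ30 was in 3, 7 and 8 of the same chains, 2.75%, 3.91% and 3.43%.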
